A study of Mus musculus with 12 samples.

Results

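Lipe, Pnpla2, Abhd5, Mgll, Plin2 and Lipa encode the core of intracellular neutral lipid hydrolysis, and their RNA was followed across 4 kinds of mouse CD4+ T cell. The 6 genes were taken by symbol from 35492 gene symbols in each library, and all 6 were among the 23308 genes tested, whose average in at least 1 group reached 1 TPM (transcripts per 1000000). Lipe was chosen because earlier results of these data had shown it higher in Th1_Vitro than in Tfh_Vitro cells, and the others because they act with it. Lipe differences that compare either of those groups, and all values of the 6 genes in the comparison between them, are therefore descriptions without a test.

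Cells store surplus fatty acids as triacylglycerol in lipid droplets and release them in steps. Adipose triglyceride lipase (Pnpla2), switched on by its coactivator (Abhd5), removes the first fatty acid, hormone-sensitive lipase (Lipe) acts mainly on the diacylglycerol that is left, and monoacylglycerol lipase (Mgll) frees the last one. Perilipin 2 (Plin2) coats droplets in most cells other than fat cells and limits access to them, while lysosomal acid lipase (Lipa) hydrolyses triacylglycerol and cholesteryl esters inside lysosomes. In mouse memory CD8+ T cells this lysosomal route is known to supply fatty acids for oxidation.

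RNA was sequenced from 12 libraries, 3 in each of 4 groups, made from CD4+ T cells of C57BL/6J mice aged 7 weeks, with 300000 cells per RNA extraction. For Tfh_TILS, CXCR5+ PD1+ cells were sorted from tumours of the MC38 colon carcinoma line, and both proteins mark follicular helper T (Tfh) cells. Tfh_OTII libraries came from naive cells of OT-II mice, which carry a transgenic T cell receptor, and Tfh_Vitro libraries from naive wild-type cells. Both were cultured with IL-6 and IL-21 at 50 ng/ml each and with antibodies blocking IL-4, IFNγ and TGFβ at 10 µg/ml each. For Th1_Vitro, naive wild-type cells received IL-12 at 10 ng/ml and the antibody blocking IL-4 at 10 µg/ml. All cultures were on plates coated for CD3 and CD28 stimulation in RPMI with 10% FBS. Sample titles give 24 h of culture for Tfh_Vitro and Th1_Vitro and 48 h for Tfh_OTII, whereas the protocol gives 48 h throughout, so culture time and the OT-II receptor cannot be told apart in a comparison of Tfh_OTII with Tfh_Vitro.

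The T cell genes Cd3e and Cd4 were present in all libraries, at 37.3 TPM or more for Cd3e and 59.6 TPM or more for Cd4. Cxcr5, the follicular homing receptor, averaged 14 TPM in Tfh_TILS, 5.1 TPM in Tfh_OTII, 6.52 TPM in Tfh_Vitro and 1.83 TPM in Th1_Vitro. Il21, a cytokine of Tfh cells, averaged 6.89, 69.8, 88.5 and 5.02 TPM in the same order. Of 7 Th1 markers, Ifng, the hallmark cytokine, averaged 46.1, 45.5, 94.4 and 135 TPM in that order, but Tbx21, the Th1 master regulator, had its highest mean in Tfh_TILS, and the other 5 (Cxcr3, Il12rb2, Stat4, Il18rap and Hlx) had their lowest mean in Th1_Vitro as deposited. Of the 7, 3 were called higher and 1 lower in Tfh_TILS minus Th1_Vitro as deposited (1 and 1 after median-of-ratios scaling), and 3 higher and 2 lower in Tfh_OTII minus Th1_Vitro (0 and 3 after scaling). Of all tested genes, 49.3% and 42.7% were called higher as deposited in these 2 comparisons, and 0.601% and 1.16% lower. After scaling, 10.2% and 12.2% were called higher, and 6.99% and 7.77% lower. TPM carry no depth, so sequencing depth is unknown. In Th1_Vitro, 12 gene models in satellite repeat arrays took 33.7 to 62.3% of all TPM and 19.5 to 41.4% of symbols were listed at 0. The satellite share was 3.48 to 19.0% in Tfh_TILS, 0.0873 to 0.458% in Tfh_OTII and 2.75 to 13.3% in Tfh_Vitro. TPM are shares of a library, so differences from Th1_Vitro are also given after median-of-ratios scaling, and a gene is said to have risen or fallen against Th1_Vitro only when it passed both ways. This scaling moved the median log2 fold change of all tested genes to 0.16 against 0.87 as deposited in Tfh_TILS minus Th1_Vitro, to 0.12 against 0.79 in Tfh_OTII minus Th1_Vitro, and to 0.14 against 0.78 in Tfh_Vitro minus Th1_Vitro.

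**Figure D1:**
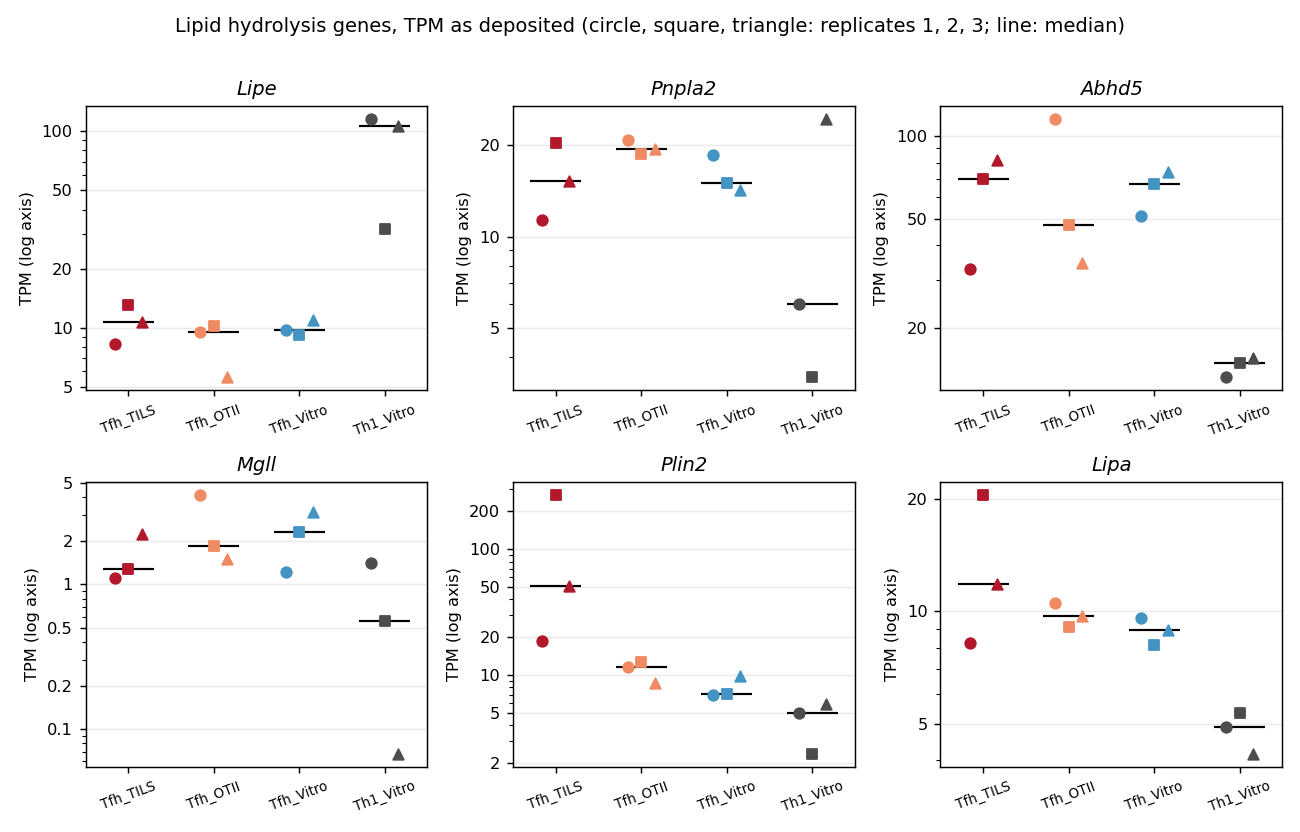
TPM as deposited of the 6 genes in each library, on log axes, with 1 point per library and a line at the group median (n = 3 libraries per group). Lipe lies between 5.59 and 13.1 TPM in the 9 libraries outside Th1_Vitro and at 31.7 TPM or more within it, and Plin2 reaches 269 TPM in Tfh_TILS.

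Lipe RNA was low in all 3 kinds of Tfh cell and high in Th1_Vitro. Lipe (chr7, 25379527 to 25398710, minus strand, GRCm38) had 8.27, 13.1 and 10.7 TPM in Tfh_TILS, 9.47, 10.2 and 5.59 TPM in Tfh_OTII, 9.73, 9.21 and 10.9 TPM in Tfh_Vitro, and 116, 31.7 and 106 TPM in Th1_Vitro. All Th1_Vitro libraries lay above all others, and the Tfh groups overlapped one another. Th1_Vitro replicate 2 was the lowest of its group by far.

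The mean log2(TPM + 1) of Lipe differed by -2.69 ± 0.41 in Tfh_TILS minus Th1_Vitro, by -3.02 ± 0.41 in Tfh_OTII minus Th1_Vitro and by -2.76 ± 0.41 in Tfh_Vitro minus Th1_Vitro (limma SE, not tested). These values run against the median of all tested genes, which is positive in each of these comparisons. After scaling, the same differences were -3.86 ± 0.34, -4.10 ± 0.34 and -3.81 ± 0.34, and scaled Lipe levels were 5.30 to 9.20 in the 9 Tfh libraries and 67.1 to 212 in Th1_Vitro. In terms of mean TPM as deposited, Lipe was 7.91 times higher in Th1_Vitro than in Tfh_TILS, 10.1 times higher than in Tfh_OTII and 8.49 times higher than in Tfh_Vitro. In Tfh_Vitro minus Th1_Vitro, 0.511% of all tested genes were called lower as deposited. Lipe was chosen on this contrast, so its negative difference there was fixed by that choice and cannot be weighed against this share.

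Within the Tfh groups Lipe allowed 1 test, since the means compared in Tfh_TILS minus Tfh_OTII come from neither group by which it was chosen. The SE and p-value are not free of those groups, because the fit takes 1 spread from all 12 libraries, the widely spread Th1_Vitro included. Its mean was 10.7 ± 2.40 TPM in Tfh_TILS and 8.42 ± 2.47 TPM in Tfh_OTII (SD, n = 3 each). The log2 fold change of 0.33 ± 0.41 did not pass (limma adjusted p = 0.646), and the groups overlapped. The limma adjusted p ranged from 0.306 to 0.935 over 20 other settings, among them a fit of the 2 compared groups alone.

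Lipe did not follow either of 2 library measures throughout. Within Th1_Vitro, replicates 1, 2 and 3 had 35.7, 19.5 and 41.4% of symbols listed at 0 and 43.5, 62.3 and 33.7% of TPM in satellite-like models. Lipe was thus lowest in the Th1_Vitro library with the fewest symbols at 0 and the highest satellite share. It was highest, at 116 TPM, in replicate 1, which lay between the others on both measures. Outside Th1_Vitro, Tfh_OTII replicate 3 had the most symbols at 0, 23.9%, and the lowest Lipe level, 5.59 TPM, the opposite pairing to that in Th1_Vitro replicate 2. The part of these measures in the Lipe difference was not tested.

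**Figure D2:**
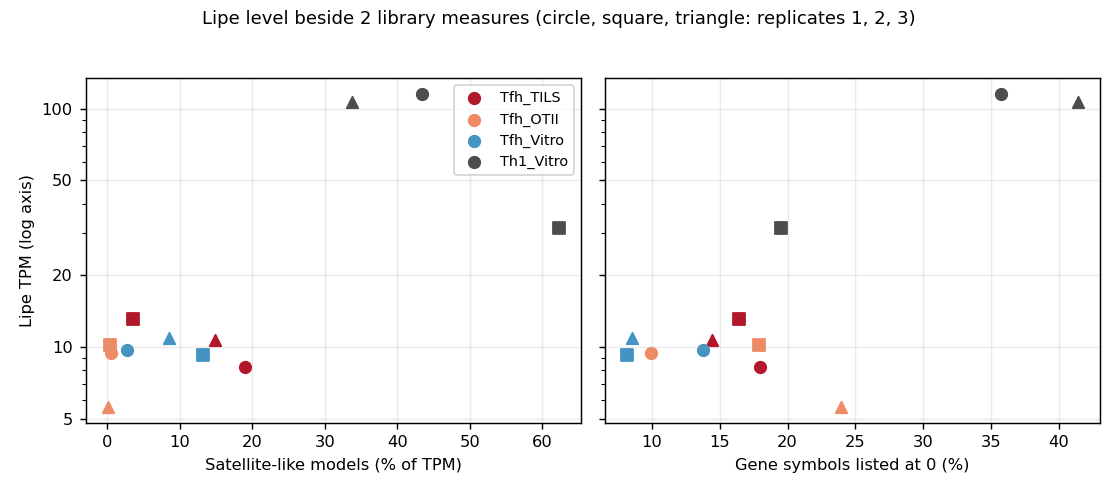
Lipe TPM as deposited (log axis) in each of 12 libraries against the share of TPM in 12 satellite-like gene models (left) and the share of gene symbols listed at 0 (right). The 3 Th1_Vitro libraries stand apart on the satellite share, at 33.7% or more, while on the right Th1_Vitro replicate 2, at 19.5%, lies within the range of the other groups.

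Overlapping annotation limits the Lipe value. The antisense gene 4732471J01Rik lies on the opposite strand and shares 918 of the 5886 exon bases of Lipe. Of 5873 distinct stretches of 31 bases in the annotated Lipe transcripts, 755 (12.9%) also occur in transcripts of other genes, in either orientation, 750 of them in this antisense gene. The library kit keeps strand, but whether strand was used in the quantification is not given in the sources used here, and the antisense gene was not analysed here. Lipe is best known from fat cells. The 10 fat cell markers summed to 12.2 to 24.2 TPM in Tfh_TILS, 8.73 to 22.3 TPM in Tfh_OTII, 9.57 to 17.2 TPM in Tfh_Vitro and 4.22 to 9.21 TPM in Th1_Vitro. In Th1_Vitro the highest single value of a marker was 3.85 TPM, and Adipoq, the fat cell hormone, had at most 0.210 TPM.

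Lipe has 2 annotated starts in the RefSeq promoter table, and a value per symbol does not tell their products apart. The table (GRCm38.p6) gives 250 bases before and 50 after each start, and both windows are shown because the Lipe value does not separate them. The GENCODE gene reaches 25398710 on the minus strand, upstream of both windows, so transcripts from other starts may also enter the value. Capitals mark the E-box CACGTG, a palindrome read the same on both strands and bound by basic helix-loop-helix factors. The windows are chr7:25395938-25396237 and chr7:25390063-25390362, both on the minus strand.
Lipe promoter 1: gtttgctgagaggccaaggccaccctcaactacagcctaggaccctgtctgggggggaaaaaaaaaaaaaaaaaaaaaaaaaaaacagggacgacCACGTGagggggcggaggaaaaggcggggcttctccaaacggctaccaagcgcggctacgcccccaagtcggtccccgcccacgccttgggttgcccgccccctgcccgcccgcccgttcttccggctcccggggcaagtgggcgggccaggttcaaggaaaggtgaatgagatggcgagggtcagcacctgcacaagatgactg
Lipe promoter 2: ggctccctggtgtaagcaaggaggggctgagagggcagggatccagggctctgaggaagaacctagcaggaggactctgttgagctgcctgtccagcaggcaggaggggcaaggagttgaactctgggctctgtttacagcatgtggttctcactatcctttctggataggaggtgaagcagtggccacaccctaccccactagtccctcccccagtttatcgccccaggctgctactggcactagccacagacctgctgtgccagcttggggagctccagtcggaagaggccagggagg
The E-box stands 155 bases before the start in promoter 1 and is not among the letters of promoter 2, and 7.15% of 32851 promoters of this length hold it. Promoter 1 also holds a run of 28 A, and 0.033% of all promoters have a single-base run of that length or longer. The longest single-base run in the annotated Lipe transcripts is also of 28 A. The nuclear receptor core motif AGGTCA, whose other strand reads TGACCT, and the sterol response site TCACCCCAC, whose other strand reads GTGGGGTGA, are in neither Lipe window.

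Ratios within a library do not depend on how the library is scaled, and are given here as a description. The ratio of Lipe to Pnpla2 TPM was 0.728, 0.640 and 0.702 in Tfh_TILS, 0.456, 0.543 and 0.287 in Tfh_OTII, 0.525, 0.611 and 0.769 in Tfh_Vitro, and 19.4, 9.25 and 4.35 in Th1_Vitro. The ratio was below 1 in all 9 Tfh libraries and above 4 in all 3 Th1_Vitro libraries. Lipe made up 3.32 to 10.3% of the summed TPM of the 6 genes in Tfh_TILS, 5.52 to 10.2% in Tfh_OTII, 8.46 to 10.0% in Tfh_Vitro and 54.3 to 79.1% in Th1_Vitro. It was the most abundant of the 6 in each Th1_Vitro library, whereas Abhd5 led in 8 of the 9 other libraries and Plin2 in Tfh_TILS replicate 2.

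**Figure D3:**
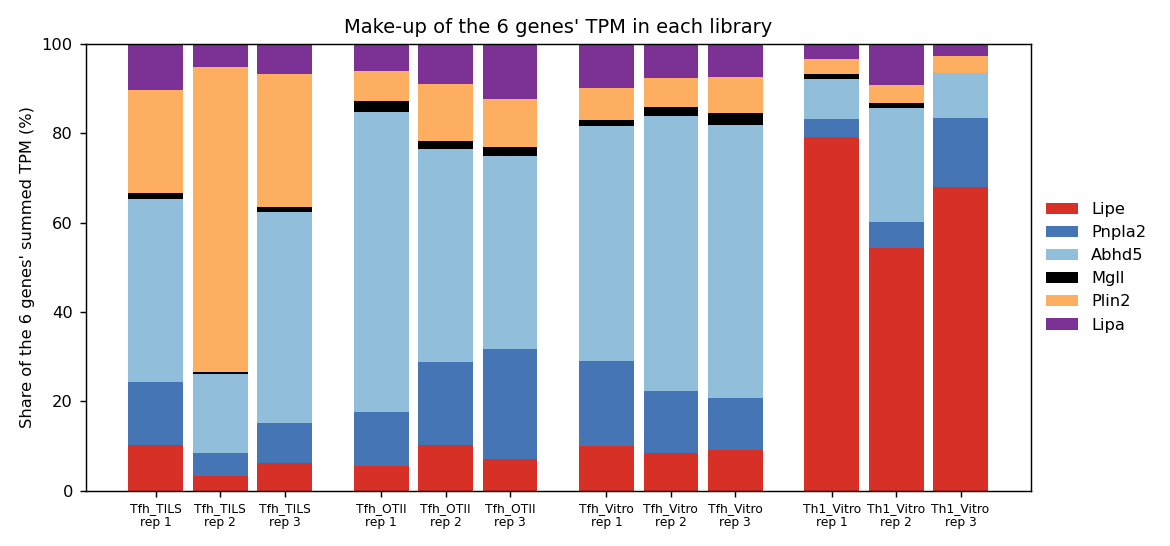
Share of the summed TPM of the 6 genes that each gene takes (%, stacked to 100), 1 bar per library. Lipe takes 54.3 to 79.1% in Th1_Vitro and at most 10.3% elsewhere, and Plin2 takes 23.1 to 68.3% in Tfh_TILS.

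The genes whose pattern was most like that of Lipe were found by Pearson correlation over the 12 libraries, on log2 of scaled TPM + 1, among 10632 genes that have a standard name and averaged 5 TPM or more in some group. Tspan31, a tetraspanin, Pomt2, an O-mannosyltransferase, and Sympk, a scaffold of the RNA 3' end processing machinery, each reached 0.98. The points share the scaling, which raises all Th1_Vitro values. As deposited, Tspan31 averaged 18.2 TPM in Tfh_TILS, 17.7 TPM in Tfh_OTII, 17.4 TPM in Tfh_Vitro and 19.5 TPM in Th1_Vitro. Sympk averaged 67.0, 52.6 and 65.8 TPM in Tfh_TILS, Tfh_OTII and Tfh_Vitro and 129 TPM in Th1_Vitro.

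Plin2, the droplet coat, was highest in tumour Tfh cells. Plin2 (chr4, 86648386 to 86670060, minus strand) had 18.6, 269 and 51.0 TPM in Tfh_TILS, 11.6, 12.7 and 8.66 TPM in Tfh_OTII, 6.98, 7.04 and 9.87 TPM in Tfh_Vitro, and 5.0, 2.39 and 5.91 TPM in Th1_Vitro. Each Tfh_TILS library lay above the 9 others, but the 3 differed among themselves by 14.5 times, far more than the libraries of any other group. Fewer cells of a type and less RNA per cell cannot be told apart in bulk samples.

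Plin2 rose in Tfh_TILS against Tfh_OTII by 2.46 ± 0.67 log2 (limma SE; adjusted p = 0.0266) and against Tfh_Vitro by 2.88 ± 0.67 log2 (limma adjusted p = 0.0473). It was the 1 of 6 members tested that was called in Tfh_TILS minus Tfh_OTII, where 15.3% of all tested genes were called and 7.97% called higher, and the 1 of 5 called in Tfh_TILS minus Tfh_Vitro, where 2.1% were called and 1.15% called higher. After scaling the fold changes were 2.35 ± 0.61 (adjusted p = 0.0211) and 2.72 ± 0.61 (adjusted p = 0.0389). Against Th1_Vitro, Plin2 rose by 3.65 ± 0.67 as deposited (limma adjusted p = 0.000914) and by 2.58 ± 0.61 after scaling (adjusted p = 0.0126). Labels do not say that the replicates come from separate mice or cultures, so these p-values measure the spread between libraries, which may be technical.

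These calls differ in how they hold. Against Th1_Vitro the call was kept in all 20 other settings (adjusted p from 0.000112 to 0.0126). Against Tfh_OTII it was kept in 14 of 20 (0.00226 to 0.0972) and against Tfh_Vitro in 6 of 20 (0.00267 to 0.188). Without Tfh_TILS replicate 2, the library with the highest level, the fold changes were 1.43 against Tfh_OTII (adjusted p = 0.0453), 1.85 against Tfh_Vitro (0.0542) and 2.62 against Th1_Vitro (0.000752). Without Tfh_TILS replicate 1, the lowest, they were 3.32, 3.74 and 4.51. In Tfh_OTII minus Th1_Vitro, Plin2 differed by 1.19 ± 0.67 (limma adjusted p = 0.165), and by 0.23 ± 0.61 after scaling. That value as deposited passed without Tfh_TILS replicate 2 (adjusted p = 0.0215) and with the 2 groups alone (0.0239).

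Markers of macrophages moved with Plin2 across the tumour libraries. The summed TPM of 18 macrophage and monocyte markers were 118.5, 1043 and 282 in Tfh_TILS replicates 1, 2 and 3, against 19.8 to 56.5 in Tfh_OTII, 36.6 to 57.5 in Tfh_Vitro and 18.4 to 20.5 in Th1_Vitro. In Tfh_TILS none of the 18 was listed at 0, and 13, 18 and 17 of them had at least 1 TPM. Of the 18, 11 were called higher in Tfh_TILS than in Tfh_OTII, 7 higher than in Tfh_Vitro and 15 higher than in Th1_Vitro as deposited (9 after scaling), and none was called lower. Of all tested genes, 7.97%, 1.15% and 49.3% were called higher in these comparisons as deposited, and 10.2% in the last after scaling. Some of the 18, such as Csf1r and Adgre1, averaged under 1 TPM in each cultured group. Such markers passed the filter only through Tfh_TILS, so they could not have been called lower there. Lyz2, which encodes the lysozyme of myeloid cells, had 34.1, 309 and 82.0 TPM in Tfh_TILS, and Csf1r, the receptor for the macrophage growth factor, had 2.51, 21.9 and 7.74 TPM there and at most 1.62 TPM in the other libraries. The order of replicates is that of Plin2, and the cells had been sorted as CD4+ CXCR5+ PD1+. This order is not particular to macrophage markers. In Tfh_TILS replicates 1, 2 and 3, the summed TPM of 13 T cell markers were 2008, 3314 and 2111. The median-of-ratios factors there, 1.15, 1.42 and 1.32, had the same order. Summed dendritic cell markers also reached 168.8 to 762 TPM in Tfh_TILS, against 31.4 to 56.7 TPM in Tfh_OTII, 58.5 to 67.1 TPM in Tfh_Vitro and 58.1 to 133.6 TPM in Th1_Vitro. The part of macrophage, monocyte or dendritic cell RNA in the Plin2 difference was not tested.

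Of 14 other droplet coat and lipase regulator genes tested, 0 were called in Tfh_TILS minus Tfh_OTII, where 15.3% of all tested genes were, and 0 in Tfh_TILS minus Tfh_Vitro, where 2.1% were. The values that follow, of some genes of this list and of Dgat1, were chosen after they were seen and are given as a description. G0s2, an inhibitor of Pnpla2, had 1.01, 59.6 and 7.19 TPM in Tfh_TILS and at most 1.24 TPM in the 9 other libraries. In Th1_Vitro, 2 libraries list it at 0. G0s2 was called higher in Tfh_TILS than in Th1_Vitro (log2 fold change 3.10 ± 0.84, limma adjusted p = 0.00881, and 2.63 ± 0.80 after scaling, adjusted p = 0.0387), although its Tfh_TILS replicate 1 lay below the highest of the other libraries. Its fold changes of 2.40 ± 0.84 against Tfh_OTII and 2.35 ± 0.84 against Tfh_Vitro did not pass. Dgat1, which makes triacylglycerol, had 13.7, 143 and 37.0 TPM in Tfh_TILS, against 8.47 to 13.7 TPM in Tfh_OTII, 11.8 to 12.7 TPM in Tfh_Vitro and 7.07 to 16.0 TPM in Th1_Vitro. Its lowest Tfh_TILS library was level with the highest of Tfh_OTII and below the highest of Th1_Vitro. Hilpda, another droplet protein that inhibits Pnpla2, had 7.03, 84.2 and 19.9 TPM in Tfh_TILS and overlapped each other group. The part of macrophage RNA in the G0s2, Dgat1 and Hilpda values was not tested. Of the other perilipins, Plin3 had 4.12, 10.7 and 4.64 TPM in Tfh_TILS and 8.63, 9.78 and 9.73 TPM in Tfh_OTII, which overlapped. Plin1 had 1.65, 2.72 and 3.08 TPM in Tfh_TILS, another order of replicates than that of Plin2, and Plin4 and Plin5 stayed at or below 1.88 TPM there.

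**Figure D4:**
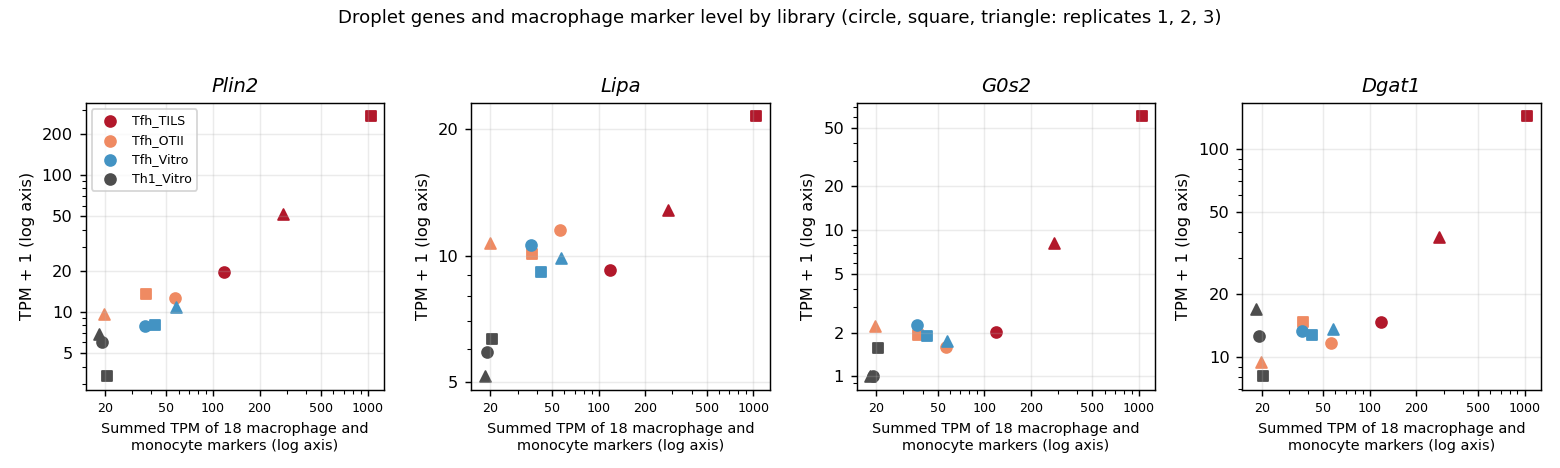
TPM + 1 of Plin2, Lipa, G0s2 and Dgat1 against the summed TPM of 18 macrophage and monocyte markers, 1 point per library, both axes logarithmic. In Tfh_TILS all 4 genes are lowest in replicate 1 and highest in replicate 2, as are the markers, at 118.5 and 1043 TPM. Summed T cell markers have this order too.

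The Plin2 promoter carries both an E-box and a nuclear receptor core motif, in capitals, and is shown because peroxisome proliferator-activated receptors are known regulators of Plin2. The window is chr4:86670010-86670309 on the minus strand (RefSeq, GRCm38.p6).
Plin2 promoter: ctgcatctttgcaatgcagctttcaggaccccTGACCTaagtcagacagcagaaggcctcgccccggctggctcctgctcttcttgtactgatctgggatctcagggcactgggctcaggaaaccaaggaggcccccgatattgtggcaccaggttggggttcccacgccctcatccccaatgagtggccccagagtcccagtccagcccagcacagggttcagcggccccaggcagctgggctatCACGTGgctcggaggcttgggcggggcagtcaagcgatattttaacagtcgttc
The E-box stands 4 bases before the start and the core motif, read as TGACCT, 218 bases before it. The core motif is in 16.3% of all promoters of this length. Among the 8 windows of the 6 genes, the E-box also occurs in 1 of the 2 Mgll windows, 44 bases before the start, and the core motif in that of Abhd5, 69 bases before it. None of the 8 holds the sterol response site, which 0.551% of all promoters do.

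Lgals8, which encodes a galectin that marks damaged endosomes, was the gene most like Plin2 over the 12 libraries (Pearson r 0.98, scaled log2 values). It was followed by Apobec1, a cytidine deaminase that edits Apob RNA, and Ccrl2, an atypical chemokine receptor of myeloid cells, with r of 0.98 and 0.97. Ccrl2 had 3.46, 118 and 29.3 TPM in Tfh_TILS and at most 1.52 TPM in the 9 other libraries. The 12 points share the single library Tfh_TILS replicate 2, which was highest for all 3 genes and for Plin2.

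Pnpla2, the lipase of the first step, was not called in any comparison tested. Pnpla2 (chr7, 141455198 to 141460743, plus strand) had 11.4, 20.4 and 15.3 TPM in Tfh_TILS, 20.8, 18.8 and 19.5 TPM in Tfh_OTII, 18.5, 15.1 and 14.2 TPM in Tfh_Vitro, and 5.97, 3.43 and 24.5 TPM in Th1_Vitro. Th1_Vitro held both the lowest values and the highest one. As deposited, Tfh_OTII lay above Tfh_Vitro without overlap, but narrowly, at 18.8 against 18.5 TPM in the nearest libraries. After scaling these groups overlapped. The log2 fold change was -0.35 ± 0.48 in Tfh_TILS minus Tfh_OTII (limma adjusted p = 0.686), -0.05 ± 0.48 in Tfh_TILS minus Tfh_Vitro (0.989), 0.82 ± 0.48 in Tfh_TILS minus Th1_Vitro (0.162) and 1.16 ± 0.48 in Tfh_OTII minus Th1_Vitro (0.064). Without Th1_Vitro replicate 3 the last 2 became 1.55 (adjusted p = 0.000661) and 1.90 (0.000132), while after scaling with all libraries they were -0.27 and 0.15. In Tfh_OTII minus Tfh_Vitro it differed by 0.30 ± 0.48 (limma adjusted p = 0.892). No stretch of 31 bases of its 7 annotated transcripts occurs in another gene. Gcc1, Rnf10 and Actn4 were most like Pnpla2 (r 0.97 each over 12 libraries, scaled), and each was lowest in Th1_Vitro replicate 2.

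Abhd5, the coactivator of that lipase, was the most abundant of the 6 genes in most libraries. Abhd5 (chr9, 122351608 to 122381524, plus strand) had 32.8, 69.8 and 81.4 TPM in Tfh_TILS, 115, 47.5 and 34.4 TPM in Tfh_OTII, 51.3, 67.1 and 74.0 TPM in Tfh_Vitro, and 13.3, 14.9 and 15.6 TPM in Th1_Vitro. The Tfh groups overlapped, and all their libraries lay above Th1_Vitro. As deposited Abhd5 was called higher in Tfh_TILS than in Th1_Vitro (log2 fold change 1.90 ± 0.41, limma adjusted p = 0.00236) and higher in Tfh_OTII than in Th1_Vitro (1.91 ± 0.41, adjusted p = 0.00229). After scaling the differences were 0.73 ± 0.33 (adjusted p = 0.149) and 0.83 ± 0.33 (adjusted p = 0.10), which did not pass. The untested difference in Tfh_Vitro minus Th1_Vitro was 2.05 ± 0.41 as deposited and 1.01 ± 0.33 after scaling. Between Tfh groups it ranged from -0.15 to -0.01 (adjusted p from 0.941 to 0.999).

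Abhd5 spread widely in Tfh_OTII, with a highest library 3.34 times the lowest. Of its 6027 stretches of 31 bases, 1003 (16.6%) occur in other genes, 920 of them in the antisense gene A730085K08Rik on the opposite strand, which was not analysed here. The genes most like it were Zfp697, Cux2 and Cd209c (r 0.93, 0.91 and 0.90 over 12 libraries, scaled). Cd209c had 248, 104 and 64.6 TPM in Tfh_OTII, in the order of replicates that Abhd5 shows.

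Mgll, the lipase of the last step, was the lowest of the 6 in every library. Mgll (chr6, 88724412 to 88828360, plus strand) had 1.11, 1.28 and 2.23 TPM in Tfh_TILS, 4.15, 1.84 and 1.5 TPM in Tfh_OTII, 1.21, 2.30 and 3.16 TPM in Tfh_Vitro, and 1.42, 0.562 and 0.0677 TPM in Th1_Vitro. It was called higher as deposited in Tfh_OTII than in Th1_Vitro (log2 fold change 1.06 ± 0.39, limma adjusted p = 0.0418), but not after scaling (0.49 ± 0.40, adjusted p = 0.420). Without Tfh_OTII replicate 1 the fold change as deposited was 0.74 (adjusted p = 0.171), and the call was lost in 11 of 19 other settings (0.0226 to 0.42 over all 19). In Tfh_TILS minus Th1_Vitro the difference was 0.65 ± 0.39 (limma adjusted p = 0.172), and between Tfh groups it lay between -0.41 and 0.09 (adjusted p from 0.533 to 0.97). Mgll is also known to degrade the endocannabinoid 2-arachidonoylglycerol, and 167 of its 5077 exon bases lie under the antisense gene Gm26588. Cdh16, Tmem241 and Ifitm7 were most like it (r 0.95, 0.92 and 0.90).

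Lipa, the lysosomal lipase, was highest in the tumour library in which Plin2 was highest. Lipa (chr19, 34492318 to 34527474, minus strand) had 8.25, 20.5 and 11.9 TPM in Tfh_TILS, 10.5, 9.11 and 9.74 TPM in Tfh_OTII, 9.58, 8.13 and 8.90 TPM in Tfh_Vitro, and 4.89, 5.34 and 4.15 TPM in Th1_Vitro. All Tfh libraries lay above Th1_Vitro, and the Tfh groups overlapped. As deposited Lipa was called higher in Tfh_TILS than in Th1_Vitro (1.24 ± 0.28 log2, limma adjusted p = 0.0031) and in Tfh_OTII than in Th1_Vitro (0.90 ± 0.28, adjusted p = 0.0199). After scaling the values were 0.17 ± 0.28 (adjusted p = 0.713) and -0.09 ± 0.28 (adjusted p = 0.863), so the sign in Tfh_OTII minus Th1_Vitro turned, and without Tfh_OTII replicate 1 the value as deposited was 0.85 (adjusted p = 0.0619). Against Tfh_OTII and Tfh_Vitro, Lipa in Tfh_TILS differed by 0.35 ± 0.28 and 0.47 ± 0.28 (limma adjusted p = 0.457 and 0.517), and Tfh_OTII minus Tfh_Vitro gave 0.13 ± 0.28 (0.931). Leprot, Rap1b and Amn1 were most like Lipa (r 0.91 each over 12 libraries, scaled), and all 3 were highest in Tfh_TILS replicate 2.

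**Figure D5:**
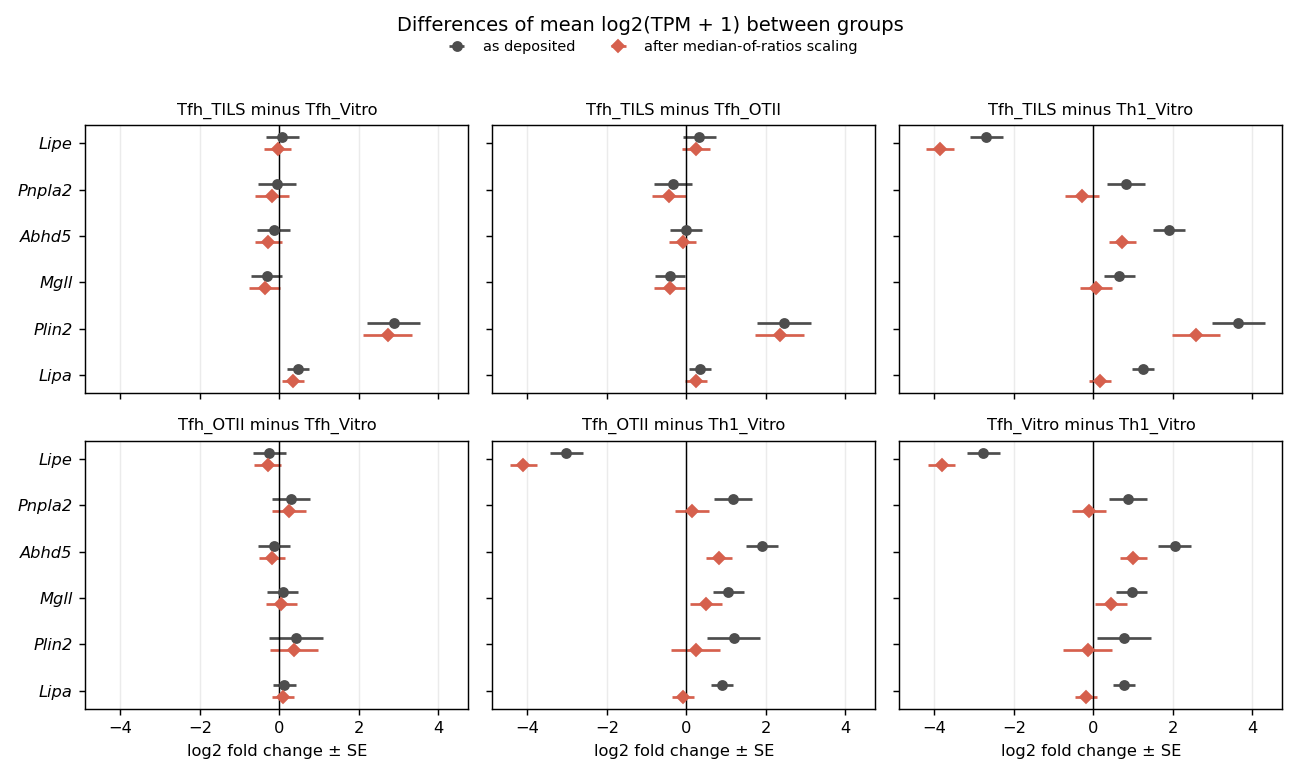
Difference of mean log2(TPM + 1) between groups with limma's SE (n = 3 libraries per group) for the 6 genes in 6 comparisons, as deposited (circles) and after median-of-ratios scaling (diamonds). Scaling moves all 6 genes to the left in comparisons with Th1_Vitro, Lipe is at -2.69 or below there before it, and Plin2 lies at 2.35 or above in the 3 comparisons of Tfh_TILS.

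Counted together, 3 of the 5 tested members were called higher as deposited in Tfh_TILS minus Th1_Vitro and 3 of 5 in Tfh_OTII minus Th1_Vitro, where 49.9% and 43.9% of all tested genes were called and 49.3% and 42.7% called higher. As deposited, calls over all genes were 11501 higher and 140 lower in Tfh_TILS minus Th1_Vitro and 9956 higher and 270 lower in Tfh_OTII minus Th1_Vitro. After scaling they were 2378 higher and 1630 lower, and 2855 higher and 1811 lower. Both ways, 1 of 5 (Plin2) and 0 of 5 remained, where 10.2% and 12.2% of all tested genes were called higher both ways. In Tfh_OTII minus Tfh_Vitro, which compares receptor-transgenic with wild-type cells in the same cytokines, limma called 0 of 5 members and 2.38% of all tested genes. Among the 5, Plin2 had the largest difference, of 0.42 ± 0.67 (adjusted p = 0.891). The comparisons with Th1_Vitro share its 3 libraries. Over 12 libraries the Pearson correlation of members on scaled log2 values was 0.61 for Plin2 with Lipa, 0.54 for Abhd5 with Mgll, -0.69 for Lipe with Abhd5 and 0.14 for Lipe with Pnpla2, as a description of libraries that share groups and scaling.

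A wider set of 174 genes of lipid hydrolysis, droplets, lysosomal lipid handling, synthesis, oxidation, uptake and hormonal control, of which 164 were tested, put the 6 in context. In Tfh_TILS minus Tfh_OTII, 8 were called higher and 13 lower, together 12.8% of the 164, where 15.3% of all tested genes were called. Their median log2 fold change was 0.12, against 0.06 over all tested genes. Fatty acid oxidation held 8 of these calls among 33 genes. In that list Pdk4, a kinase that spares glucose, averaged 26.3 ± 10.2 TPM in Tfh_TILS and 6.78 ± 3.22 TPM in Tfh_OTII (log2 fold change 1.83 ± 0.36, limma adjusted p = 0.00473). The carnitine carrier gene Slc25a20 averaged 79.5 ± 24.7 and 23.2 ± 3.48 TPM (1.70 ± 0.27, adjusted p = 0.00134). The other 6 fell, among them Acadl, the long-chain acyl-CoA dehydrogenase, with 45.4 ± 30.9 TPM in Tfh_TILS and 162 ± 8.29 TPM in Tfh_OTII (-2.01 ± 0.39, adjusted p = 0.00414). Hadh, the enzyme of the next dehydrogenation, averaged 14.2 ± 1.33 and 45.0 ± 2.20 TPM (-1.60 ± 0.26, adjusted p = 0.00134), so genes of this list moved in both directions. Leaving out 1 library at a time gave 7 to 11 calls in the list.

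In the same comparison 1 of 17 uptake and binding genes was called higher and 3 lower, and 1 of 24 genes of hormonal and energy control higher and 2 lower, where 15.3% of all tested genes were called. Cd36, a fatty acid transporter, had 8.88, 18 and 9.01 TPM in Tfh_TILS, against 0.751, 0.588 and 0.227 TPM in Tfh_OTII (log2 fold change 3.04 ± 0.32, limma adjusted p = 9.18e-05). It was also the 1 gene of the 164 (0.61%) called in Tfh_TILS minus Tfh_Vitro (2.74 ± 0.32, limma adjusted p = 0.00184), where 2.1% of all tested genes were called. As for the summed macrophage and summed T cell markers, its Tfh_TILS replicate 2 was highest and replicate 1 lowest. Dbi, an acyl-CoA binding protein, fell by 2.15 ± 0.30 log2 (47.6 ± 14.6 TPM in Tfh_TILS and 209 ± 12.1 TPM in Tfh_OTII, adjusted p = 0.000593). Prkaca, a catalytic subunit of the kinase that activates hormone-sensitive lipase, averaged 12.1 ± 1.56 TPM in Tfh_TILS and 33.6 ± 5.01 TPM in Tfh_OTII (-1.40 ± 0.24, limma adjusted p = 0.00182). Pde3b, the phosphodiesterase by which insulin restrains lipolysis in fat cells, averaged 32.3 ± 4.12 and 68.8 ± 2.60 TPM (-1.08 ± 0.19, adjusted p = 0.0028). Hcar2, a receptor that inhibits lipolysis in fat cells, averaged 45.9 ± 58.6 TPM in Tfh_TILS and 0.0856 ± 0.0811 TPM in Tfh_OTII (4.10 ± 0.95, adjusted p = 0.0113). Its tumour libraries had 1.24, 112 and 24.4 TPM, again in the order that summed macrophage and summed T cell markers share. The part of macrophage RNA in the Cd36 and Hcar2 differences was not tested. Cd36 and Hcar2 averaged under 1 TPM in each cultured group and passed the filter only through Tfh_TILS. Comparisons with Tfh_TILS could therefore call these genes in 1 direction only.

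Among the other hydrolases, 2 of 27 tested were called higher and 1 lower in Tfh_TILS minus Tfh_OTII, against 15.3% of all tested genes called. Nceh1, a neutral cholesteryl ester hydrolase of macrophages, had 8.85, 30.0 and 18.1 TPM in Tfh_TILS against 8.17, 7.07 and 3.67 TPM in Tfh_OTII (log2 fold change 1.36 ± 0.42, limma adjusted p = 0.0462, and 1.25 ± 0.41 with adjusted p = 0.0581 after scaling). Its tumour libraries too had the replicate order that summed macrophage and summed T cell markers share. Ces1f, a carboxylesterase, averaged 33.9 ± 10.4 TPM in Tfh_TILS and 11.4 ± 8.87 TPM in Tfh_OTII (1.67 ± 0.48, adjusted p = 0.0323). Abhd4, a hydrolase of N-acyl phospholipids, fell by 0.94 ± 0.28 (6.96 ± 2.54 TPM in Tfh_TILS and 13.8 ± 1.04 TPM in Tfh_OTII, adjusted p = 0.040). Of 25 lysosomal genes, Mitf and Lamp2 were called higher and none lower, against the same 15.3%. Lamp2, a lysosomal membrane protein, had 24.0, 99.7 and 36.5 TPM in Tfh_TILS, and the part of macrophage RNA in the Nceh1 and Lamp2 differences was not tested. Without 1 library the 27 hydrolases gave 0 to 3 calls and the lysosomal genes 1 to 8, with 0 hydrolases called without Tfh_OTII replicate 3 and 8 lysosomal genes without Tfh_TILS replicate 1.

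Against Th1_Vitro the median log2 fold change of the 164 genes as deposited was 1.03 for Tfh_TILS and 0.91 for Tfh_OTII, against 0.87 and 0.79 over all tested genes. In Tfh_TILS minus Th1_Vitro 105 were called higher as deposited and 0 lower, where 49.3% of all tested genes were called higher. After scaling 16 were called higher and 11 lower, and 16 were higher both ways, against 10.2% of all tested genes. In Tfh_OTII minus Th1_Vitro 86 were called higher and 0 lower as deposited, against 42.7% higher of all tested genes, and 24 higher and 10 lower after scaling, with 24 higher both ways against 12.2%. Tfh_Vitro minus Th1_Vitro, the contrast by which Lipe was chosen, gave 81 higher and 0 lower as deposited, 10 higher and 9 lower after scaling and 10 higher both ways, as a description. Over all tested genes 41.6% were called there as deposited and 8.65% were higher both ways. Cpt1a, which commits fatty acids to mitochondrial oxidation, rose in Tfh_TILS and in Tfh_OTII, at 9.07 ± 3.77 TPM in Tfh_TILS and 6.36 ± 0.592 TPM in Tfh_OTII, against 0.973 ± 0.0620 TPM in Th1_Vitro. The log2 fold change in Tfh_TILS minus Th1_Vitro was 2.28 ± 0.27 (limma adjusted p = 6.76e-05), and 1.47 ± 0.26 after scaling (adjusted p = 0.00327). In Tfh_OTII minus Th1_Vitro it was 1.90 ± 0.27 (limma adjusted p = 0.000132), and 1.18 ± 0.26 after scaling (adjusted p = 0.00767). In Tfh_OTII minus Tfh_Vitro, 1.22% of the 164 were called, against 2.38% of all tested genes. Pdk4 and Slc25a20 fell there, by 1.71 ± 0.36 and 1.18 ± 0.27 log2 (limma adjusted p = 0.0255 and 0.0397). These 2 calls became 0 with trimmed-mean scaling and without Tfh_OTII replicate 1 or 3 or Tfh_Vitro replicate 2 or 3, and 1 without Tfh_OTII replicate 2.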

How the data were processed

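Per the submitters' processing notes, the authors quantified reads with kallisto on mm10; the version, the transcript annotation and the use of strand are not given in the sources used here. Libraries were stranded total RNA depleted of ribosomal RNA, sequenced as pairs of 75 bases, per the labels' protocols. The deposited values are TPM, 1 per gene symbol, and each library sums to 1000000, so depth is unknown and no counting interval can be given. The members, gene lists, naming rule and tests were chosen with earlier results of these data known. Differences were computed with limma 3.58.1 (R 4.3.3) on log2(TPM + 1) of all 12 libraries, with 1 mean per group, an intensity trend in the prior variance and Benjamini-Hochberg adjustment over the 23308 genes that averaged 1 TPM or more in any group, two-sided, called at an adjusted p under 0.05. Fold changes on this scale understate those of low genes. Alternatives were median-of-ratios scaling over 17585 genes above 0 in all libraries, a trimmed mean of log ratios, computed without weights since no counts exist, removal of the 12 satellite-like models, 0.1 as the pseudocount, every gene above 0 or only those averaging 5 TPM in a group, the 2 compared groups alone, the replicate number as a block, and each library left out. The named-gene rule took all members and, per list and comparison, up to 3 called genes in each direction with the largest fold change, at a mean of 5 TPM or more and without overlap of groups, and, in comparisons with Th1_Vitro, called also after scaling. The fit was tested on simulated data. Positions are from GENCODE M21 (GRCm38) and promoters from RefSeq (GRCm38.p6; all 6 genes matched); tables were made with Python 3.11.15, numpy 2.4.6 and pandas 2.3.3.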

Additional observations from a re-analysis of the deposited data

How the results depend on the processing

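In the comparisons tested, the 5 members other than Lipe, and Lipe in Tfh_TILS minus Tfh_OTII, gave 455 values with the same direction and side of the threshold over the alternatives, 42 that lost a call, 4 that gained one and 14 log2 fold changes that changed sign. Of these 14 only Lipa in Tfh_OTII minus Th1_Vitro was called as deposited, at -0.0859 with median-of-ratios and -0.0128 with trimmed-mean scaling. The others were not called either way: Pnpla2 in Tfh_TILS minus Th1_Vitro at -0.2745 and -0.2524 with the same scalings, and in Tfh_TILS minus Tfh_Vitro at 0.016 without satellite-like models and at 0.0571 and 0.1488 without Tfh_Vitro or Tfh_TILS replicate 1 (-0.2479 to 0.1488 leaving out each library). Abhd5 was at 0.1816 in Tfh_TILS minus Tfh_OTII without satellite-like models and at 0.3858 and 0.4893 without Tfh_TILS or Tfh_OTII replicate 1 (-0.3671 to 0.4893), at 0.2461 in Tfh_TILS minus Tfh_Vitro without Tfh_TILS replicate 1 (-0.3967 to 0.2461), and at 0.2213 in Tfh_OTII minus Tfh_Vitro without Tfh_OTII replicate 3 (-0.6351 to 0.2213). Mgll in Tfh_OTII minus Tfh_Vitro was at -0.1582 and -0.227 without Tfh_Vitro or Tfh_OTII replicate 1 (-0.227 to 0.2972). Scaling limits every comparison with Th1_Vitro. With median-of-ratios scaling, trimmed-mean scaling and removal of satellite-like models, genes called numbered 4008, 3421 and 5286 in Tfh_TILS minus Th1_Vitro (11641 as deposited), 4666, 4136 and 4536 in Tfh_OTII minus Th1_Vitro (10226) and 3196, 2688 and 3389 in Tfh_Vitro minus Th1_Vitro (9688). Members called fell to 1 in Tfh_TILS minus Th1_Vitro and 0 in Tfh_OTII minus Th1_Vitro under each of these 3, against 3 in both, and genes of the pathway lists to 27, 23 and 48 (105), 34, 31 and 40 (86), and 19, 15 and 26 (81), for Tfh_TILS, Tfh_OTII and Tfh_Vitro minus Th1_Vitro.

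In Tfh_TILS minus Tfh_Vitro, 489 genes became 262 with a pseudocount of 0.1 and 279 with the replicate block. The 1 member called, Plin2, became 0 with that pseudocount, without a filter, with the 2 groups alone and with the block, and the 1 list gene became 3 with median-of-ratios scaling or 2 groups and 4 without satellite-like models or with the filter at 5 TPM. In Tfh_TILS minus Tfh_OTII the 1 member called became 0 without a filter and with 2 groups. In Tfh_OTII minus Tfh_Vitro, 555 genes became 345 without satellite-like models, 359 with a pseudocount of 0.1 and 2857 with 2 groups, and 2 list genes became 0 with trimmed-mean scaling, 1 without satellite-like models, with a pseudocount of 0.1, without a filter and with the block, and 20 with 2 groups. The cause was not tested. Replicate numbers showed no steady pairing of the samples. Over 18 same-numbered pairs the correlation of deviations ran from -0.386 to 0.303, and 3 of 18 correlated best with their own number. With 3 libraries per group this check cannot decide whether same-numbered libraries were paired, and the labels do not say.

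Leaving out 1 library at a time gave 94 to 1049 genes called in Tfh_TILS minus Tfh_Vitro (94, 105 and 193 without Tfh_Vitro replicates 2, 1 and 3, 179 and 882 without Tfh_TILS replicates 3 and 1, 308 without Tfh_OTII replicate 2, 1049 without Th1_Vitro replicate 3), 2011 to 4817 in Tfh_TILS minus Tfh_OTII (2011 and 2246 without Tfh_OTII replicates 3 and 2), 9282 to 12227 in Tfh_TILS minus Th1_Vitro, 144 to 1042 in Tfh_OTII minus Tfh_Vitro (144 and 183 without Tfh_Vitro replicates 3 and 2, 223 without Tfh_OTII replicate 3, 1042 without Th1_Vitro replicate 3), 7730 to 11166 in Tfh_OTII minus Th1_Vitro and 6336 to 10380 in Tfh_Vitro minus Th1_Vitro (6336 without Tfh_Vitro replicate 3). Members called were 0 to 1, 0 to 1, 3 to 4 and 1 to 4 in Tfh_TILS minus Tfh_Vitro, Tfh_TILS minus Tfh_OTII, Tfh_TILS minus Th1_Vitro and Tfh_OTII minus Th1_Vitro. List genes called were 1 to 11, 14 to 30, 83 to 115, 0 to 7, 68 to 97 and 64 to 97 in the 6 comparisons as ordered for genes. Depth is unknown, so no limit from depth can be given.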
